A study of Triticum aestivum with 6 samples.

Results

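The Waxy (Wx) genes and the genes of the large subunit (AGPL1) and the small subunit (AGPS1) of ADP-glucose pyrophosphorylase were followed in the endosperm of the winter wheat cultivar Zhoumai36. They are 9 genes of the 127196 listed, chosen by identifier as the homoeologs that encode 3 proteins. The rule itself uses no measured value, although earlier results of these data were known when these genes were picked. Homoeologs are the copies of a gene on the A, B and D subgenomes of hexaploid wheat, and 3 such copies form a triad. RNA came from field-grown grains collected 25 days after anthesis, and 6 libraries were analysed here. The innermost endosperm (IE) region, with 3 libraries, was the lobed zone at the centre of a section through the middle of the grain. The remaining endosperm (RE) region, also 3 libraries, was the rest of that section after the pericarp had been removed, a mixture of aleurone and starchy endosperm. Both regions share the cultivar, the field and the stage, and the labels give no nitrogen treatment for any library, so none was assigned. The study grew plants at low and at high nitrogen and describes libraries of both. The labels do not tell whether the libraries used here share a nitrogen level. The study compared the regions for the heterogeneity of storage protein in the endosperm, and the same libraries hold the transcripts of starch synthesis examined here.

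ADP-glucose pyrophosphorylase joins glucose 1-phosphate and ATP to ADP-glucose, the glucose donor from which starch is built, and this step is widely regarded as a control point of starch synthesis. The enzyme is a heterotetramer of large and small subunits, and in cereal endosperm most of its activity lies in the cytosol. In barley, the small subunit gene gives rise to a cytosolic and a plastidial form through alternative first exons, and a value per gene would add such forms together. The Wx genes encode granule-bound starch synthase I, which elongates amylose within the starch granule, and grains that lack it have waxy starch with little or no amylose. The B copy of Wx lies on chromosome 4A rather than 7B because of an ancient translocation. The genes are written here with their chromosome, as Wx-4A or AGPL1-1B.

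Expression was measured as FPKM, fragments scaled by transcript length and library total, as deposited by the authors. Fragment numbers were worked out from the steps between low values, with library totals of 13959933 to 21766392 fragments. The 9 genes were deeply covered, with 916 fragments for the lowest value and 58313 for the highest. Counting error alone, as the relative standard error of a Poisson count, was therefore between 0.414% and 3.30%, while the SD between replicates of a region was between 12.9% and 44.2% of the mean. The IE libraries differed among themselves. Of the summed FPKM, the 100 most abundant genes held 50.9% in IE replicate 2, against 59.9% in IE replicate 1, 62.3% in IE replicate 3 and 52.6% to 55.8% in the RE libraries. Across the 51830 genes tested, which are not independent replicates, log2 values of IE replicate 2 correlated with those of RE replicates 1, 2 and 3 at r = 0.865, 0.915 and 0.910, and with IE replicates 1 and 3 at r = 0.897 and 0.860. For comparison, IE replicate 1 correlated with IE replicate 3 at r = 0.912 and with RE replicate 2 at r = 0.924. IE replicate 3 correlated with RE replicates 1, 2 and 3 at r = 0.850, 0.867 and 0.842, and it had the lowest library total of fragments, 13959933. Under high nitrogen, the study names a gliadin gene, TraesCSU01G153800, as higher in IE and globulin genes as higher in RE. They were thus picked for a difference between the regions in the same experiment, so their values are no separate check of the tissue. The gliadin gene was present in all 6 libraries, at 44.7, 31.9 and 50.4 FPKM in IE replicates 1 to 3 against 21.1, 24.4 and 25.5 FPKM in RE. Of the globulin genes, TraesCS4D01G171800 was at 160, 403 and 186 FPKM in IE against 356, 372 and 547 FPKM in RE. TraesCS7D01G351300 was at 1.70, 6.22 and 0.663 FPKM in IE against 6.63, 2.01 and 2.93 FPKM in RE. IE replicate 2 thus lay within the RE range for both globulin genes, where the other IE libraries lay below it, while for the gliadin gene it was the lowest IE library and still above RE. The part of this in the results was not tested. Markers of the aleurone were not analysed here. Values of single libraries are listed from here on in the order of replicates 1, 2 and 3 of a region.

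Wx-4A (TraesCS4A01G418200) was the most abundant of the 9 genes and ranked 101 of all genes by mean FPKM, where the first, TraesCS5D01G004100, had a mean of 35272 FPKM. Its level in IE was 1964, 994 and 1684 FPKM, and its level in RE was 1030, 1443 and 1123 FPKM. IE replicates 1 and 3 lay above all RE libraries and IE replicate 2 lay below them, so the regions overlapped. Wx-7D (TraesCS7D01G064300) was at 678, 289 and 625 FPKM in IE and at 388, 588 and 371 FPKM in RE. Wx-7A (TraesCS7A01G070100) was the weakest copy, at 311, 122 and 315 FPKM in IE and 188, 286 and 170 FPKM in RE. All 3 copies had the same arrangement, with IE replicate 2 as the lowest of the 6 libraries. Means were 1547 ± 499 FPKM in IE and 1199 ± 216 FPKM in RE for Wx-4A, 531 ± 211 and 449 ± 121 FPKM for Wx-7D, and 249 ± 110 and 215 ± 62.2 FPKM for Wx-7A (SD, n = 3 each).

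The large subunit genes were the next most abundant. AGPL1-1D (TraesCS1D01G427400) was at 608, 352 and 638 FPKM in IE and at 311, 364 and 284 FPKM in RE. Of the IE libraries, only replicate 2 fell within the range of RE. AGPL1-1B (TraesCS1B01G449700) was at 553, 321 and 605 FPKM in IE and at 285, 316 and 222 FPKM in RE, and for this gene the regions did not overlap, although IE replicate 2 exceeded RE replicate 2 only narrowly. AGPL1-1A (TraesCS1A01G419600) was at 416, 208 and 541 FPKM in IE and at 184, 276 and 218 FPKM in RE, with IE replicate 2 inside the RE range. The mean of each copy in IE was between 1.67 and 1.80 times that in RE, namely 533 ± 158 against 319 ± 41.1 FPKM for AGPL1-1D, 493 ± 152 against 274 ± 47.9 FPKM for AGPL1-1B, and 388 ± 168 against 226 ± 46.6 FPKM for AGPL1-1A (SD, n = 3 each).

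The small subunit genes were expressed at lower levels. AGPS1-7D (TraesCS7D01G284900) was at 88.5, 46.7 and 102 FPKM in IE and at 77.0, 74.8 and 54.6 FPKM in RE. AGPS1-7A (TraesCS7A01G287400) was at 85.9, 41.5 and 92.6 FPKM in IE and at 67.0, 61.4 and 44.5 FPKM in RE. AGPS1-7B (TraesCS7B01G183300) was at 49.0, 25.2 and 60.7 FPKM in IE and at 33.6, 39.4 and 28.1 FPKM in RE. As with Wx, IE replicates 1 and 3 exceeded all RE libraries for each copy, while IE replicate 2 was the lowest of the 6. Means were 79.0 ± 28.8 FPKM in IE and 68.8 ± 12.4 FPKM in RE for AGPS1-7D, 73.3 ± 27.8 and 57.6 ± 11.7 FPKM for AGPS1-7A, and 45.0 ± 18.1 and 33.7 ± 5.65 FPKM for AGPS1-7B (SD, n = 3 each).

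**Figure D1:**
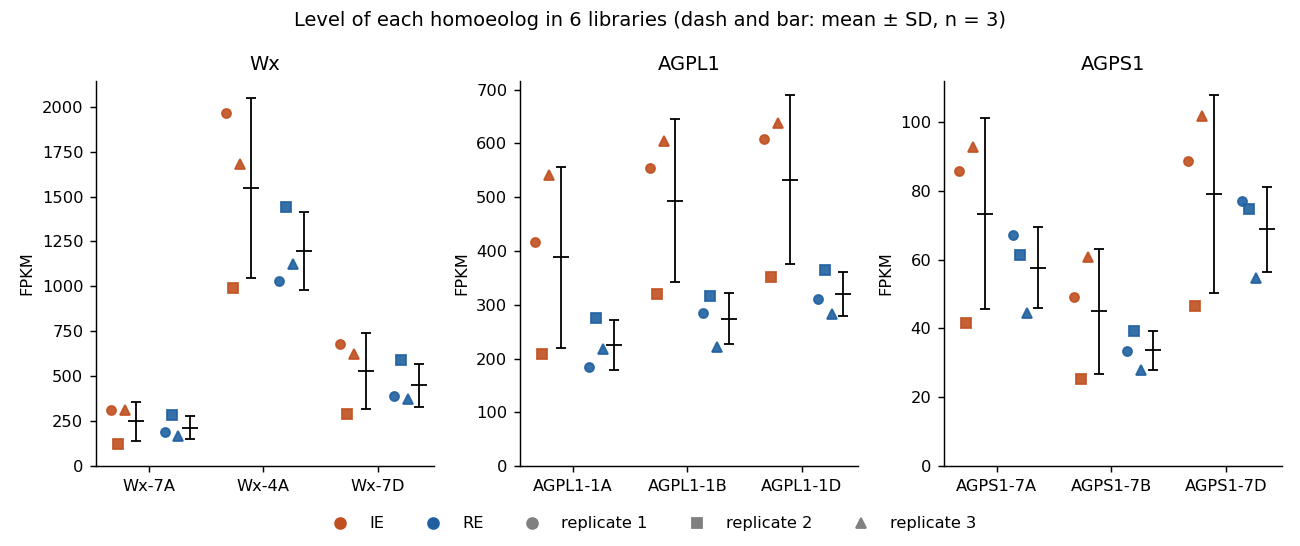
FPKM of each homoeolog (y axis, linear) in the 3 IE and 3 RE libraries, with the replicate number as the symbol and the mean ± SD (n = 3) beside the points. IE replicate 2, the orange square, is the lowest IE library for all 9 genes, and it lies above the RE libraries for AGPL1-1B alone.

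The order of the levels mostly held from library to library. From the highest mean FPKM to the lowest it ran Wx-4A, Wx-7D, AGPL1-1D, AGPL1-1B, AGPL1-1A, Wx-7A, AGPS1-7D, AGPS1-7A and AGPS1-7B. Of the 8 neighbouring pairs in this order, 6 kept it in all 6 libraries. The exceptions were Wx-7D with AGPL1-1D and AGPL1-1A with Wx-7A, each of which kept the order in 4 of 6 libraries. Wx-7D exceeded AGPL1-1D in 3 RE libraries and in 1 IE library, whereas AGPL1-1A exceeded Wx-7A in 3 IE libraries and in 1 RE library.

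Within each triad the homoeologs differed in a constant direction. Their log2 ratios were compared within libraries by an exact two-sided sign-flip permutation test for 9 pairs, in which 6 libraries cannot give less than p = 0.0313. All 9 pairs reached this smallest value (adjusted p = 0.0313 over the 9 pairs, each pair with the same direction in 6 of 6 libraries). This counts the 6 libraries as independent, which is not established, because IE and RE were cut from the same grain sections. The exact two-sided sign-flip permutation test gave p = 0.25 for each pair in the 3 IE libraries alone. For the 3 RE libraries alone, the same exact sign-flip permutation test also gave p = 0.25 for each pair. With so few libraries it cannot give a small p. Wx-4A exceeded Wx-7D by 2.84-fold (2.45 to 3.44 over the libraries) and Wx-7A by 6.07-fold (5.05 to 8.14). The spread was narrower among the large subunit genes, where AGPL1-1D exceeded AGPL1-1B by 1.13-fold (1.05 to 1.28) and AGPL1-1A by 1.43-fold (1.18 to 1.69), and AGPL1-1B exceeded AGPL1-1A by 1.27-fold (1.02 to 1.55). Among the small subunit genes AGPS1-7D exceeded AGPS1-7A by 1.14-fold (1.03 to 1.23) and AGPS1-7B by 1.90-fold (1.68 to 2.29). These are ratios of FPKM and so allow for length. The lengths recovered from the values were 1815, 1818 and 1815 bases for Wx-7A, Wx-4A and Wx-7D, 1667, 1587 and 1667 bases for AGPL1-1A, AGPL1-1B and AGPL1-1D, and 1662, 1668 and 1668 bases for AGPS1-7A, AGPS1-7B and AGPS1-7D. Homoeologs are similar in sequence, and the way in which reads matching more than 1 copy were divided is not given in the sources used here. Sums over a triad do not depend on that division if such reads were shared among its copies. If such reads were dropped, the sums and their ratios would depend on how similar the copies are. Reads of Zhoumai36 were aligned to the Chinese Spring genome. Any difference between copies in how well they aligned would recur in every library, so the sign-flip test cannot detect it. This was not tested.

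As shares of the triad sum, the 3 triads drew on the subgenomes differently. Wx-4A supplied 62.3% to 70.7% of the Wx sum over the 6 libraries, Wx-7D 20.6% to 25.4% and Wx-7A 8.69% to 12.3%. The AGPL1 sum was divided more evenly, with 35.8% to 39.9% from AGPL1-1D, 30.7% to 36.6% from AGPL1-1B and 23.5% to 30.3% from AGPL1-1A. The B copy was the least of the AGPS1 triad, at 18.9% to 23.8% for AGPS1-7B against 35.0% to 38.4% for AGPS1-7A and 39.6% to 43.4% for AGPS1-7D. For scale, genes on the B chromosomes together held 25.2% to 28.4% of the FPKM summed over genes placed on A, B and D chromosomes, and genes on the D chromosomes 46.6% to 50.5%. Wx-4A is counted there as an A chromosome gene.

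**Figure D2:**
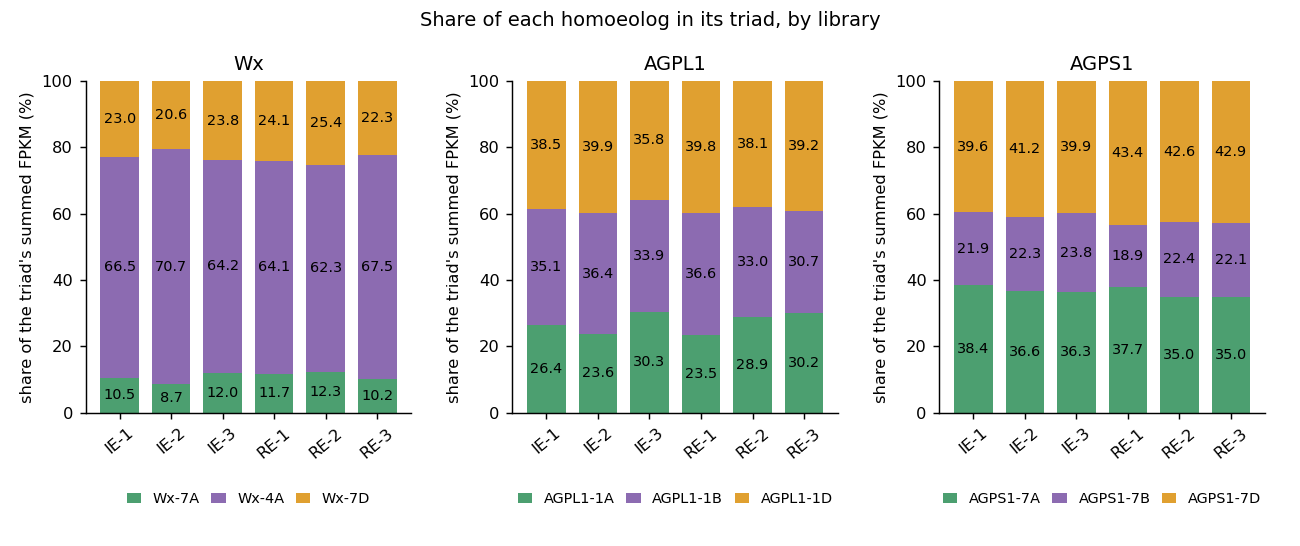
Share of each homoeolog in the summed FPKM of its triad (y axis, percent) in each of the 6 libraries, as stacked bars with A, B and D copies in green, purple and orange. The copy from the B subgenome, Wx-4A, makes up 62.3% or more of the Wx bars, while the AGPL1 bars are divided more evenly and AGPS1-7B is the smallest part of the AGPS1 bars.

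Most of these shares did not separate IE from RE. The exception was AGPS1-7D, which supplied 39.6%, 41.2% and 39.9% of the AGPS1 sum in IE and 43.4%, 42.6% and 42.9% in RE. The regions did not overlap, and the mean share in IE less that in RE was -2.75 percentage points (exact permutation p = 0.1, two-sided, and 0.643 adjusted over the 9 shares). With 3 libraries against 3, 0.1 is the smallest p that such a test allows. For the other 8 shares the regions overlapped, with exact permutation p-values from 0.3 to 1. The share of Wx-4A was 67.1 ± 3.33% in IE and 64.6 ± 2.64% in RE (SD, n = 3 each), a difference within the spread between replicates.

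All 9 genes passed the filter on low values, and 0 of them was called between IE and RE. Genes were tested with limma on log2(FPKM + 0.1), and a gene was called where its p, adjusted over the 51830 genes tested, was at most 0.05 and its level differed by 2-fold or more. By this rule 0% of the genes tested were called. With an unadjusted p of at most 0.05, 2 of the 9 genes were higher in IE, where 2.91% of all genes tested were. This count was 0 with the replicate block and 0 with libraries scaled to the same sum without the 100 most abundant genes, and between 0 and 6 with single libraries left out. The log2 fold change, given for IE relative to RE, was above 0 for all 9 genes, with a median of 0.33, where 38.5% of all genes tested were above 0 and their median was -0.12. Without IE replicate 1, IE replicate 3 or RE replicate 3, 7 of the 9 were above 0, the exceptions being among Wx-7A, Wx-7D and AGPS1-7D. The 9 genes vary together across the libraries, so these counts are not 9 separate observations.

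The largest differences belonged to the large subunit genes. The log2 fold change was 0.81 for AGPL1-1B (standard error 0.31, 95% interval 0.09 to 1.52, limma adjusted p = 0.451). It was 0.70 for AGPL1-1D (standard error 0.29, interval 0.01 to 1.38, limma adjusted p = 0.490). For AGPL1-1A it was 0.69 (standard error 0.38, interval -0.18 to 1.57, limma adjusted p = 0.580). These lay between the 93.3 and 94.7 percentiles of the log2 fold changes of all genes tested. In the Wx genes the values ran from 0.13 for Wx-7A (interval -0.83 to 1.09) to 0.33 for Wx-4A (interval -0.46 to 1.11), and in the small subunit genes from 0.14 for AGPS1-7D (interval -0.62 to 0.90) to 0.34 for AGPS1-7B (interval -0.45 to 1.12), with limma adjusted p-values between 0.776 and 0.939. A level 2-fold higher in IE, a log2 fold change of 1, thus remained within the intervals of 8 of the 9 genes and outside that of AGPS1-7D.

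IE replicate 2 carried much of the spread. It was the lowest IE library for all 9 genes, and the lowest of the 6 libraries for 6 of them. IE replicate 3 was the highest IE library for 7 of the 9 genes. IE replicates 1 and 3 lay above every RE library for all 9 genes, which held for 9.15% of all genes tested. With IE replicate 2 included, AGPL1-1B was the only gene of the 9 whose IE values were all above its RE values, which held for 4.35% of all genes tested. Leaving out the lowest IE library necessarily raises the log2 fold changes and favours the 9 genes in such counts. The other genes tested were not chosen for being lowest in IE replicate 2. Shares over all genes without that library, here and above, are therefore not a like comparison for the 9 genes. Without IE replicate 2, 6 of the 9 genes were higher in IE at an unadjusted p of at most 0.05, where 3.56% of all genes tested were. The log2 fold changes were then 1.09 for AGPL1-1B (limma adjusted p = 0.0671), 0.97 for AGPL1-1D (0.0689) and 1.09 for AGPL1-1A (0.0799). Those of the Wx and small subunit genes were between 0.48 and 0.71, and again 0% of all genes tested were called. Without IE replicate 3, the log2 fold changes of AGPL1-1B, AGPL1-1D and AGPL1-1A were 0.63, 0.54 and 0.40. Those of the Wx and small subunit genes were then between -0.10 and 0.24. Nothing in the labels sets IE replicate 2 or 3 apart, and their part in the result beyond these values was not tested.

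**Figure D3:**
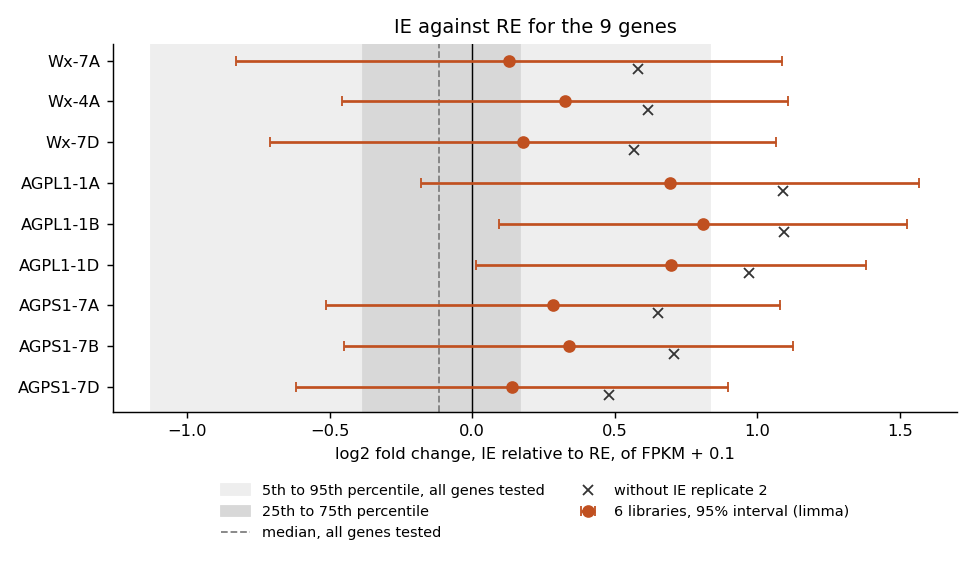
Log2 fold change of IE relative to RE (x axis, on FPKM + 0.1) for the 9 genes, as points with 95% limma intervals over 6 libraries and crosses for the values without IE replicate 2, on grey bands for the log2 fold changes of all 51830 genes tested. The 3 large subunit genes lie farthest to the right, at 0.69 to 0.81. The crosses lie to the right of the points by construction, since IE replicate 2 is the lowest IE library for all 9 genes.

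Summed over the copies, the same arrangement held. The AGPL1 sum in IE was 1578, 880 and 1785 FPKM, against 779, 956 and 724 FPKM in RE. Its means were 1414 ± 474 and 820 ± 121 FPKM (SD, n = 3 each), 1.66-fold higher in IE as the ratio of geometric means, with IE replicate 2 below RE replicate 2. The Wx sum was 2327 ± 815 FPKM in IE and 1862 ± 394 FPKM in RE, a ratio of 1.21, and the AGPS1 sum was 197 ± 74.3 and 160 ± 28.6 FPKM (SD, n = 3 each), a ratio of 1.18. None of the 3 sums differed beyond the spread between libraries (two-sided exact permutation tests, p = 0.2 for AGPL1 and 0.6 for Wx and AGPS1, adjusted p = 0.6 for each over the 3 sums). With single libraries left out, the log2 difference ranged from 0.064 (without IE replicate 1) to 0.60 for Wx, from 0.0081 (without IE replicate 3) to 0.59 for AGPS1 and from 0.53 (without IE replicate 3) to 1.04 for AGPL1, with each highest value reached without IE replicate 2. Together the 9 genes made up between 0.201% and 0.407% of the summed FPKM of a library. In bulk tissue, fewer cells of a type and less RNA per cell cannot be told apart, and a sum of FPKM is a share of the RNA of the region, not an amount per grain.

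The balance between the triads separated the regions more clearly than their levels. A ratio of sums within a library does not depend on the total or the scaling of that library. The ratio of AGPL1 to AGPS1 was 7.06, 7.76 and 7.00 in IE and 4.39, 5.44 and 5.69 in RE. The IE libraries, replicate 2 included, thus all had more large subunit transcript per small subunit transcript than any RE library. The means were 7.28 ± 0.424 in IE and 5.17 ± 0.692 in RE (SD, n = 3 each), 1.41-fold apart as geometric means (exact permutation p = 0.1, two-sided, the smallest this design allows, and 0.15 adjusted over the 3 ratios). When single large and small subunit genes were paired, 8 of the 9 ratios separated the regions without overlap, with IE higher, the exception being AGPL1-1A to AGPS1-7A, where RE replicate 3 at 4.91 exceeded IE replicate 1 at 4.85. These 9 ratios share their genes and are not separate observations. When every other gene tested was set against the AGPS1 sum in the same way, 1.2% had every IE ratio above every RE ratio.

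The ratio of Wx to AGPL1 went the other way. It was 1.87, 1.60 and 1.47 in IE and 2.06, 2.42 and 2.30 in RE, again without overlap. The means were 1.65 ± 0.205 and 2.26 ± 0.185 (SD, n = 3 each), which is 0.726 times as high in IE as geometric means (two-sided exact permutation test, p = 0.1, adjusted p = 0.15). Of all other genes tested, 0.938% had IE ratios to the Wx sum that were all above the RE ratios. The ratio of Wx to AGPS1 did not separate the regions, at 12.0 ± 1.51 in IE and 11.8 ± 2.37 in RE (SD, n = 3 each), with RE replicate 1 the lowest at 9.04 and IE replicate 1 the highest at 13.2 (two-sided exact permutation test, p = 0.8). Of the 3 triads, AGPL1 is the member of both ratios that separated IE from RE. The ratios are built from the same 3 sums and each follows from the others, so they are not separate observations. With Wx to AGPS1 nearly equal in the regions, the separation of Wx to AGPL1 largely restates that of AGPL1 to AGPS1. With any single library left out, the difference in log2 ratio stayed between 0.38 and 0.57 for AGPL1 to AGPS1 and between -0.56 and -0.39 for Wx to AGPL1. The exact permutation p of Wx to AGPL1 rose to 0.2 without RE replicate 2 or RE replicate 3. Taking IE and RE libraries of the same number as pairs, a sign-flip permutation test gave p = 0.25 for each of these ratios. With so few pairs it cannot give a small p.

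**Figure D4:**
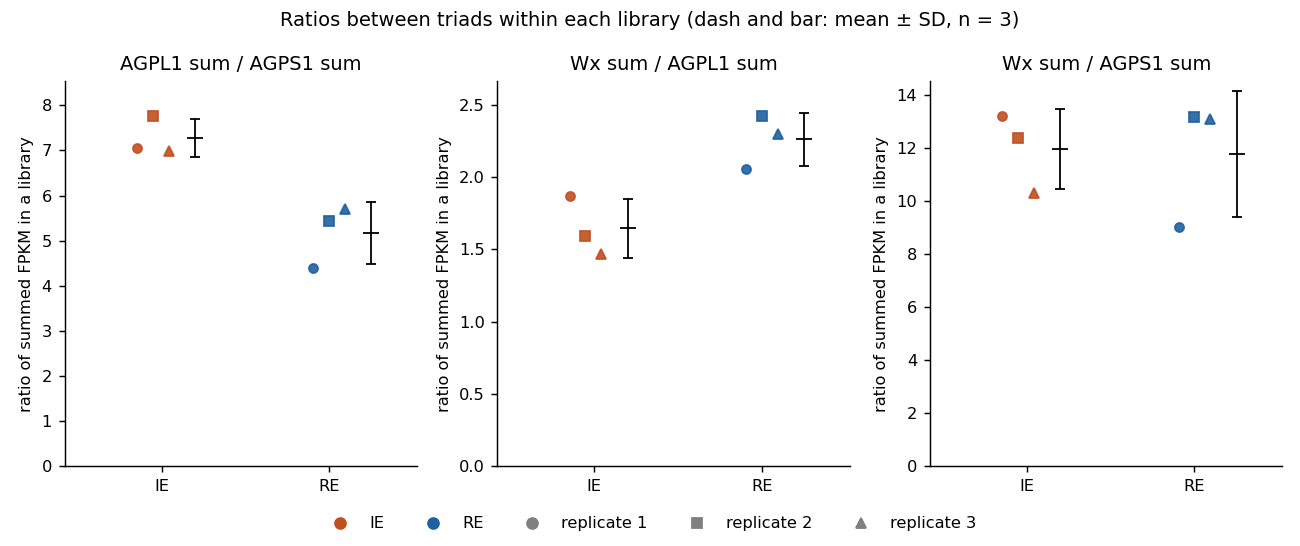
Ratio of the summed FPKM of 2 triads within a library (y axis, linear from 0) in the 3 IE and 3 RE libraries, with the mean ± SD (n = 3) beside the points. The IE and RE points do not overlap for AGPL1 to AGPS1 (7.00 to 7.76 against 4.39 to 5.69) and for Wx to AGPL1 (1.47 to 1.87 against 2.06 to 2.42), and they overlap for Wx to AGPS1.

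Across the 6 libraries the copies of a triad varied together. As a description over 6 libraries that share their regions, Pearson correlations of log2 FPKM were 0.910 to 0.992 within Wx, 0.910 to 0.991 within AGPL1 and 0.952 to 0.984 within AGPS1. Between triads they were 0.744 to 0.920 for AGPL1 with AGPS1, 0.693 to 0.908 for Wx with AGPL1 and 0.779 to 0.929 for Wx with AGPS1. Among the 7188 other genes whose mean reached 10 FPKM, the pattern nearest to the Wx sum was that of TraesCS1A01G413900 (r = 0.995), followed by TraesCS3D01G241400 (r = 0.991) and TraesCS3A01G036600 (r = 0.972). Nearest to the AGPL1 sum were TraesCS6D01G111400, TraesCS2D01G335300 and TraesCS7A01G171200, at r = 0.985, 0.984 and 0.984. TraesCS1B01G010500 (r = 0.995), TraesCS5D01G223700 (r = 0.990) and TraesCS2A01G528200 (r = 0.989) were nearest to the AGPS1 sum. With 6 libraries, 17, 45 and 53 genes reached r = 0.95 or more with Wx, AGPL1 and AGPS1, and the sources used here do not annotate the genes named.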

How the data were processed

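Reads had been cleaned with fastp and aligned by HISAT2 against the Chinese Spring genome. The authors deposited 1 table of FPKM values, with a column for each library. The counting tool and its use of strand are not given in the sources used here. Columns were matched to libraries by title and grouped by the labelled endosperm part. The methods describe the replicates as biological, and p-values measure the spread between these libraries. Gene lengths, library totals and whole fragments were recovered from the FPKM values and used for depth and checks. This held for 100% of 86042 genes with a value, within 0.01 fragments plus a small allowance at high counts. Lengths were searched until fragments came out whole, so this share is no separate check. The recovered fragments summed to 99.4% to 99.5% of the library totals. The recovery was tested on simulated data.

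Genes whose mean reached 0.5 FPKM were tested with limma 3.58.1 in R 4.3.3 (lmFit, eBayes with a variance trend) on log2(FPKM + 0.1), with Benjamini-Hochberg adjustment over all genes tested. The script was tested on simulated data. The study used a count-based test with a p of at most 0.05 and a 2-fold change, and its methods mention no adjustment of p. It reports genes that differ significantly between the regions at each nitrogen level. The absence of calls here, with an adjusted p, is therefore not a like comparison. Here the deposited FPKM values were tested, and limma's voom on the recovered fragments was an alternative. Sums, shares and ratios were compared by exact permutation tests in Python 3.11.15 with numpy 2.4.6 and pandas 2.3.3. Alternatives changed the pseudocount, the filter, the scaling, the variance trend, the block and the unit, or left out a library.

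The genes named are the 9 members, the 3 genes most like each triad sum, the most abundant gene, and the gliadin and globulin genes that the study names. The rule for the members uses no measured value, but the members, lists and tests were chosen with earlier results of these data known, and the ratios of other genes to the AGPS1 and Wx sums were computed after seeing the data. Other genes of starch synthesis were not used here, because 0 of the member identifiers matched the annotation table at hand (IWGSC CS RefSeq v2.1).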

Additional observations from a re-analysis of the deposited data

How the results depend on the processing

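With the adjusted p, 0 genes were called between IE and RE by limma under every alternative run, voom on the recovered fragments included, and 2980 passed with an unadjusted p of at most 0.05 and the 2-fold change. Median-ratio scaling moved the median log2 fold change of all genes from -0.12 to 0.0039, and the 9 genes then lay between 0.25 and 0.93. All 9 kept their direction under each scaling run. Leaving out single libraries, the log2 fold changes ranged from -0.10 to 0.58 for Wx-7A, from -0.046 to 0.57 for Wx-7D and from -0.081 to 0.48 for AGPS1-7D, so their direction is not fixed by these libraries. Wx-7A turned to -0.09 without IE replicate 1, -0.10 without IE replicate 3 and -0.02 without RE replicate 3. Wx-7D turned to -0.046 without IE replicate 1, and AGPS1-7D to -0.081 without IE replicate 3 and -0.02 without RE replicate 3. The other 6 genes stayed above 0, from 0.07 to 0.71 for Wx-4A, AGPS1-7A and AGPS1-7B and from 0.40 to 1.09 for AGPL1. The difference in share changed sign for AGPL1-1A without IE replicate 2 (0.819 percentage points) and RE replicate 3 (0.559), with a range of -2.75 to 0.819, and for AGPL1-1D without IE replicate 3 (0.194), with a range of -1.89 to 0.194. For Wx to AGPS1 the difference in log2 ratio turned to -0.04 without IE replicate 1 and -0.14 without RE replicate 1, in a range of -0.14 to 0.14. When fragments were not divided by length, the exact permutation p of AGPL1-1A with AGPL1-1B went from 0.0313 to 0.0625 (log2 ratio -0.27), since AGPL1-1B has the shorter length. Correlations of deviations between the IE and RE libraries of the same number were 0.11, 0.06 and -0.20 for numbers 1, 2 and 3. Those between IE and RE libraries of different numbers ran from -0.24 to 0.25. With so few libraries, these values cannot tell whether libraries of the same number are paired. With the replicate block, 0 genes were called, and the log2 fold change of AGPL1-1B stayed 0.81 (limma adjusted p = 0.551). At 916 fragments or more per value, counting error was well under the spread between replicates.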
